A study of Mus musculus with 48 samples.

Results

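The genes described here are the collagens, the laminin chains and the integrin subunits in libraries of mouse astrocytes, glia whose endfeet wrap the vessels of the brain. They were taken by symbol, and 80 of the 24421 gene rows in each table are reported: 44 collagen chains, 11 laminin chains and 25 integrin subunits. Collagens and laminins are secreted as 3-chain molecules. Laminins and collagen IV form the sheets of basement membrane around vessels and under the pial surface, which those endfeet adjoin. Integrins are receptors made of an alpha and a beta subunit that hold cells to these sheets and signal through talin, kindlin and vinculin, and the alpha V beta 8 pair also releases TGF-beta from its latent form.

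RNA-seq was run on 48 libraries labelled as astrocytes, in 15 groups. One part followed 3 brain regions (cortex, hippocampus and olfactory bulb) over the ages P1, P7 and P14, postnatal days in each case, with 3 libraries a group and 4 for cortex P14, and the labels name neither a strain nor a genotype for these mice. The other part compared P28 mice labelled Gabbr1 control and Gabbr1 cKO, a conditional knockout of a GABA-B receptor subunit, with 4 control and 4 cKO libraries for cortex, 2 and 4 for hippocampus, and 3 and 3 for olfactory bulb. Tamoxifen is given as the treatment of every hippocampal and olfactory bulb library at P28, control and cKO alike, and of 3 of the 8 cortical ones (control replicates 3 and 4 and cKO replicate 4), whose labels are of a second style; the Cre driver is not named in the labels. The labels do not say that libraries come from separate animals, so every p-value measures the spread between these libraries.

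Libraries held 1773226 to 15008466 reads on genes. In hippocampus P14 libraries held 2539583 to 4248087 against 5098757 to 8986015 at P1. In olfactory bulb they held 1773226 to 2669394 against 5473837 to 9062118, so depth ran with age there. The deposited values are gene read counts divided by 1 factor per library, here called normalized values, and the 6 tables (a region at the 3 young ages, or a region at P28) were scaled separately, so differences were tested within a table only. The 9 astrocyte markers were all above 0 in every group, and their summed value ran from 21088 to 27848 at cortex P1 and from 494260 to 552754 at cortex P14. Neuronal markers ran the other way in cortex, from 3848 to 4564 at P1 down to 216 to 455 at P14. Gabbr1 read 927 to 1930 in cortex controls against 89.8 to 211 in cKO libraries, and was lower in every cKO library than in every control of the other regions too, though limma called it in cortex alone. 4 libraries stand apart and are named where they touch a result. Cortex P1 replicate 1 held few vessel and fibroblast transcripts (an endothelial marker sum of 34.1 against 272 and 411, and a fibroblast sum of 32.4 against 357 and 282). Cortex P14 replicate 3 held many vessel transcripts (an endothelial sum of 522 against 73.0 to 132 and a mural sum of 653 against 225 to 241), with a fibroblast sum of 212 against 139 to 160. Hippocampus P28 cKO replicate 2 and olfactory bulb P28 control replicate 2 carried 0.594% and 0.476% of their reads on the ribosomal RNA gene Rn45s, which took 13.7% to 38.0% in all others.

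The promoter windows of 6 members are shown because these genes carry the results that follow: the collagen IV chains Col4a1 and Col4a2, which lie head to head, the integrin partners Itgav and Itgb8, which both rose, and the laminin beta chains Lamb1 and Lamb2, which moved in opposite directions in cortex and hippocampus. Each is the RefSeq window from 250 bases before to 50 after a start site on GRCm38.p6, read 5′ to 3′ along the gene, and capitals mark the GC box GGGCGG and the CCAAT box on either strand (no match of one overlaps the other in these windows).
Col4a1: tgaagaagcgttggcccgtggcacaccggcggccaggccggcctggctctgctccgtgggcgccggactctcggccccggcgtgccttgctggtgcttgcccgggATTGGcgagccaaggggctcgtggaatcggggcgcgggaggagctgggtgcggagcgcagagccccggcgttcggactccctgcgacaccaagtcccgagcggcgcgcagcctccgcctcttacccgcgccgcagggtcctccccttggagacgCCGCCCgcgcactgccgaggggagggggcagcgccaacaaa
Col4a2: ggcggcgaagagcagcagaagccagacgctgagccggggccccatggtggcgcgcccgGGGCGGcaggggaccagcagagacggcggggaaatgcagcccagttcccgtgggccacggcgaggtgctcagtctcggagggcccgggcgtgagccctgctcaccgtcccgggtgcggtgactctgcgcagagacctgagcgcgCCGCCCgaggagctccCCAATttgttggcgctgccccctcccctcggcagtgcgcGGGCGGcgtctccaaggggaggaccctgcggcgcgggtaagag
Itgav: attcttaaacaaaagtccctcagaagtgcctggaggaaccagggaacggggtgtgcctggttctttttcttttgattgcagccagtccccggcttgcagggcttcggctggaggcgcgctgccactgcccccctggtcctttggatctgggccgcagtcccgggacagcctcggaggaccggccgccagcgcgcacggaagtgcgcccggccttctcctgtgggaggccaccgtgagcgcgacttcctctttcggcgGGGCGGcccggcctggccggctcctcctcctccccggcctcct
Itgb8: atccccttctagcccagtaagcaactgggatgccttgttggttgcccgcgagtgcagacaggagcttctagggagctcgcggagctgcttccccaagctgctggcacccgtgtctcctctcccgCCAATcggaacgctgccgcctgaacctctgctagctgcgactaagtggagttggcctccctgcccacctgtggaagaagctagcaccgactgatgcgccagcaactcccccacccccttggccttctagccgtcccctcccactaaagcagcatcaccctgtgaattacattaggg
Lamb1: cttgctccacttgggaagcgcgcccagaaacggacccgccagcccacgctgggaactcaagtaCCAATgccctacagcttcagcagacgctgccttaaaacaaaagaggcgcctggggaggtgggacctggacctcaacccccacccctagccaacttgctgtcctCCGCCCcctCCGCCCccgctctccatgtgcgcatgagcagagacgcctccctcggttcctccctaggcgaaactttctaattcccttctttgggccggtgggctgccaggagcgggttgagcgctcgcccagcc
Lamb2: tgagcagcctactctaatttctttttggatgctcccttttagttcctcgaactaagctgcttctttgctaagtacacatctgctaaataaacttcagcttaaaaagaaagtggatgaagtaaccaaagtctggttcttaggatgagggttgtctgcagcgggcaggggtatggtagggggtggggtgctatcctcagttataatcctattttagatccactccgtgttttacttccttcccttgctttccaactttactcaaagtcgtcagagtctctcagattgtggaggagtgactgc

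The windows are chr8:11312777-11313076 on the minus strand for Col4a1, chr8:11312555-11312854 on the plus strand for Col4a2, chr2:83724147-83724446 on the plus strand for Itgav, chr12:119238227-119238526 on the minus strand for Itgb8, chr12:31265043-31265342 on the plus strand for Lamb1 and chr9:108479612-108479911 on the plus strand for Lamb2. The Col4a1 and Col4a2 windows share 78 bases, and in GENCODE vM21 the start sites are 21 bases apart with first exons that overlap by 22 bases on opposite strands. Whether reads were counted by strand is not given in the sources used here, and reads from that short overlap cannot be assigned to one chain. A GC box was found in 34 of the 63 windows of members (54.0%) against 35.7% of all 32851 windows, and a CCAAT box in 17 (27.0%) against 37.4%. The TATA box TATAAA was found in 5 windows of members (7.9%) against 13.6% of all, and the SOX core ACAATGG in 0 against 3.7%. These matches describe letters in a window, and binding was not examined.

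Between P1 and P14 the abundant integrins and Lamb2 rose in every region, and in olfactory bulb collagen IV and laminin chains rose. As deposited, most collagens that moved fell in cortex and hippocampus, though in cortex not under quantile normalization. Differences are on the log2(value + 1) scale, from limma over all genes with a table mean of at least 10, and a member is called higher or lower at a Benjamini-Hochberg adjusted p under 0.05. As deposited, the first week held rises alone, though quantile normalization gave 12 members higher and 1 lower in cortex. In cortex 10 of the 44 members tested were higher at P7 than at P1 and 0 lower, where 15.6% of all genes were higher and 18.1% lower (33.7% in either direction). Hippocampus had the same numbers, 10 and 0 of 44, beside 11.2% and 6.92% of all genes (18.1% in either direction). In olfactory bulb 8 of 41 were higher and 0 lower, beside 7.59% and 2.98% (10.6% in either direction). The counts of hippocampus and olfactory bulb moved when 1 library was left out. They were 5 in hippocampus without P1 replicate 1 or P7 replicate 1 and 6 without P1 replicate 3 or P7 replicate 2, and 3 in olfactory bulb without any P1 library, P7 replicate 1 or P7 replicate 2. A fit of those ages alone called 18 in each of the regions.

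Counts for the second week follow. From P7 to P14 5 cortical members rose and 18 fell, when 18.6% of all genes were higher and 31.3% lower (49.8% in all). In hippocampus the counts were 5 and 16, with 12.5% and 17.7% of all genes (30.1% in all). In olfactory bulb 14 members were higher and 3 lower, with 20.4% and 26.6% of all genes (47.0% in all).

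Over the whole span, 12 cortical members were higher and 14 lower, 59.1% of those tested, beside 24.0% and 40.3% of all genes (64.4% in all). The hippocampus had 10 higher and 18 lower, 63.6%, beside 21.0% and 28.5% (49.5% in all). The olfactory bulb had 21 higher and 1 lower, 53.7%, beside 24.8% and 31.4% (56.1% in all). In cortex and olfactory bulb the share of members called was near that of all genes, and the direction in olfactory bulb was not: 51.2% of members were higher and 2.44% lower. The median log2 difference of the members was -0.19, -1.13 and 1.28 in the order cortex, hippocampus, olfactory bulb, against -0.27, -0.29 and -0.24 over all genes tested. Members below the filter, 36 of 80 in each of cortex and hippocampus and 39 in olfactory bulb, are in no count, so the counts are of the members that passed and not of the families.

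**Figure D1:**
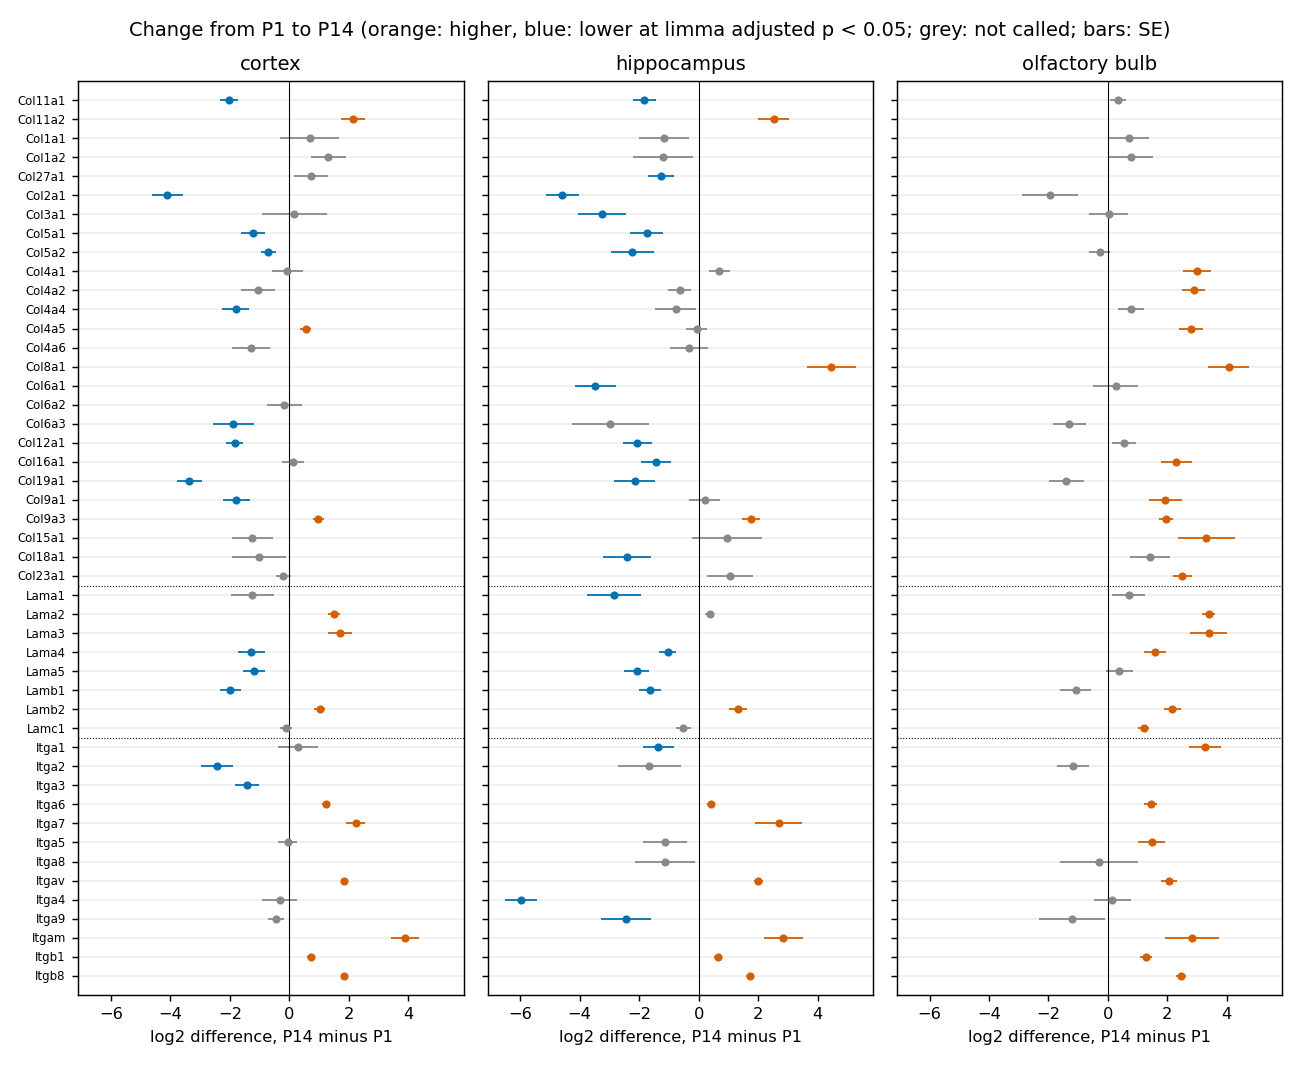
Log2 differences between P14 and P1, with standard errors, for the members tested (all but 1), in 3 panels by region and ordered as collagens, laminins and integrins. Orange points are called higher and blue points lower by limma, and the blue collagens of the cortex and hippocampus panels have no counterpart in olfactory bulb, where 21 members are orange.

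Scaling and libraries moved these splits in cortex and hippocampus. With quantile normalization, 14 members were higher and 5 lower over the whole span in cortex and 9 and 10 in hippocampus, and with TMM scaling 13 and 11, and 11 and 17. The median of all genes in cortex shifted with them, from -0.27 as deposited to 0.03 with quantile normalization and -0.05 with TMM. In olfactory bulb the split was 22 and 1 with quantile normalization. Without cortex P1 replicate 1 and P14 replicate 3, an alternative chosen after seeing the data, 11 members were higher and 27 lower from P1 to P14, of 46 tested, when 21.7% of all genes were higher and 37.5% lower. The same fit gave 9 and 0 in the first week (13.1% of all genes higher and 13.1% lower) and 5 and 27 in the second (18.3% and 31.3%). Collagens made up most of that shift, with 9 lower of 24 tested in all libraries and 17 lower of 25 without those 2. The 9 of 24 is near the 40.3% of all genes that were lower in cortex. With quantile normalization, where 5 cortical members of any family were lower, falls were no majority among the collagens called.

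The most abundant integrins rose with age in all regions. The libraries changed in other ways over that span. Mature oligodendrocyte markers summed to 334 to 381 at cortex P1 and to 15195 to 26006 at P14, to 72.3 to 91.3 and then 1603 to 2310 for hippocampus, and to 98.7 to 186 and then 1919 to 2234 for olfactory bulb, and 5 of 6, 4 of 4 and 4 of 4 of those tested were called higher. Astrocyte sums went from between 13573 and 15605 up to between 425766 and 459547 in hippocampal libraries and from between 5030 and 7159 up to between 123627 and 140509 in olfactory bulb, while neuronal sums went down from 1754 to 1922 to 272 to 315 and from 2652 to 3301 to 419 to 902. The part of these shifts in the integrin values was not tested. Read per kilobase of exon, Itgb1, the beta subunit shared by the laminin and collagen receptors, had the highest group mean of all members at P1, P7 and P14 in each region. It ran from 98.2 normalized units per kilobase in olfactory bulb P1 to 278 in cortex P7. At P14 Itgav was close to Itgb1 in cortex (242 against 245) and hippocampus (247 against 266), and no order is read there. At P28 Itgav led in cortex (212 in controls, 230 in cKO) and hippocampus (150 in controls, 173 in cKO), while in olfactory bulb 4 subunits (Itgb8, Itgb1, Itga6 and Itgav) lay between 79.1 and 132 per kilobase in controls, of which replicate 2 is the library low in Rn45s, and between 114 and 138 in cKO, and no order is read from these. Across regions these levels come from separately scaled tables and were not tested.

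Itgav, the alpha V subunit that binds RGD-containing ligands, read 570.5, 796 and 816 in the cortex P1 libraries, 1947, 2216 and 1923 at P7 and 2532, 2766, 2377 and 2705 at P14. Every P7 and P14 library was above every P1 library. The difference between P14 and P1 was 1.85 (SE 0.12, limma adjusted p 1.8e-08). In hippocampus Itgav went from 691, 769.8 and 540.0 at P1 through 1612, 1554 and 1729.6 to 2246, 2844 and 2884 at P14 (log2 difference 2.00, SE 0.15, with a limma adjusted p of 7.3e-07). In olfactory bulb it read 258, 269.9 and 251 at P1, 721, 634 and 328 at P7 and 1175, 1263 and 858 at P14, and the log2 difference between P14 and P1 was 2.06 (SE 0.26). In no region did the P1 and P14 libraries overlap.

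Itgb8, whose product pairs with the alpha V subunit alone, rose as well. Its cortex values were 269.6, 334 and 337 at P1, 899, 1083 and 944 at P7 and 1077, 1039.5, 1205 and 1161 at P14. Most of that rise lay before P7: the log2 difference of P7 from P1 was 1.64 (SE 0.11, limma adjusted p 2.5e-07), and the difference of P14 from P7 did not pass the test. Hippocampal values went from 336, 327 and 322 through 757, 627 and 714 to 1184, 918 and 1184. The olfactory bulb values were 203, 252 and 216, then 362, 521 and 373, then 1155, 1279 and 1273, so there the larger step came after P7, 1.58 (SE 0.16) against 0.89 (SE 0.16) on the log2 scale; which step is larger was not tested. Itgav and Itgb8 kept the call from P1 to P14 in each region under every alternative that was run.

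**Figure D2:**
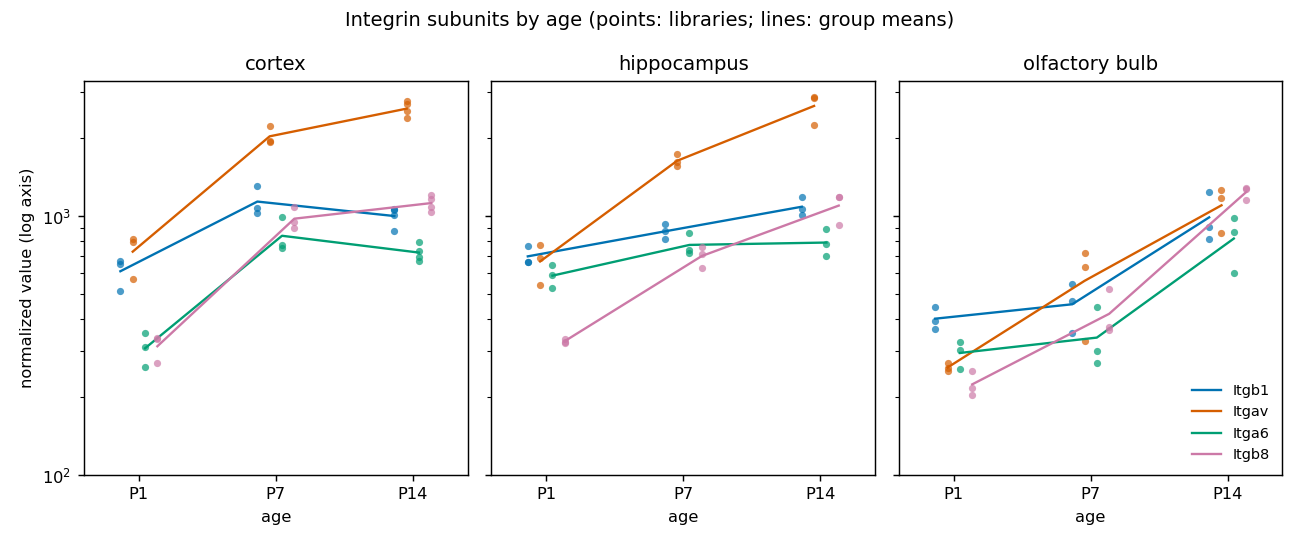
Normalized values of 4 integrin subunits on a log axis against age in the 3 regions, with a point for each library and lines through group means. The means of Itgav and Itgb8 are higher at each later age in all panels, and Itgav is between 2246 and 2884 in hippocampus at P14 against 540.0 to 769.8 at P1.

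Itgb1 rose less. It read 513, 666 and 654 at cortex P1, 1026, 1304 and 1077 at P7 and 872, 1049, 1010.1 and 1063 at P14, a log2 difference of 0.71 between P14 and P1 (SE 0.12). Hippocampal Itgb1 went from 766, 662 and 665 to 1061, 1009 and 1184 (log2 difference 0.64, SE 0.12, not called under quantile normalization, where it was 0.31). In olfactory bulb it stayed between 352 and 545 at P1 and P7 and was 1238, 907 and 815 at P14 (log2 difference from P1 1.28, SE 0.20). Its P14 libraries lay above all P1 libraries in each region.

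Of the laminin-binding alpha subunits, Itga6 was the most abundant in the developing libraries. It read 259.7, 311 and 354 at cortex P1 against 667, 792, 732 and 695 at P14 (log2 difference 1.23, SE 0.12, limma adjusted p 1.4e-06) and 256, 327 and 303 in olfactory bulb against 982, 604 and 866 (1.44, SE 0.22). In hippocampus the change was small, from 645, 589.8 and 528 to 703, 888 and 776 (0.42, SE 0.14, limma adjusted p 0.024), and the call was lost in 5 of 17 alternatives, namely quantile normalization, limma without trend and the removal of P1 replicate 2, P1 replicate 3 or P14 replicate 2. Itga7 also rose, in cortex from 3.98, 9.57 and 10.8 to 53.0, 39.6, 33.4 and 32.7 (2.23, SE 0.33) and in hippocampus from 3.92, 0.446 and 3.69 to 51.6, 5.51 and 25.1 (2.69, SE 0.79), where the call was lost without P1 replicate 2. Itga3, the remaining subunit of the class, fell in cortex by 1.42 on the log2 scale (SE 0.41; not called under quantile normalization) and did not reach the filter in the other regions.

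The other alpha subunits are given by the ligands they bind. Itga4, which binds fibronectin and VCAM-1, read 155, 186 and 102 at hippocampus P1, 146, 97.0 and 113 at P7 and 0, 3.31 and 1.79 at P14, so that every P14 library was far below the others (log2 difference from P1 -5.98, SE 0.53, limma adjusted p 3.0e-06). Those hippocampal P14 values rest on few reads, so the size of the fall is loosely fixed. Itga4 did not pass the test in cortex or olfactory bulb, where the P14 values were 11.9 to 79.8 and 25.8 to 185. Itga4 exons overlap those of Cerkl on the other strand by 1124 bases, and reads there cannot be assigned to one gene. The collagen-binding subunit Itga2 fell in cortex between P1 and P14 by 2.43 (SE 0.53), though not under quantile normalization. Its fellow Itga1 rose in olfactory bulb from 10.8, 16.7 and 16.0 to 51.7, 245 and 249 (log2 difference 3.28, SE 0.54). The fall of Itga1 in hippocampus, -1.35 (SE 0.52, limma adjusted p 0.049), was lost in 13 of 16 alternatives. Itga1 in olfactory bulb moved together with the endothelial marker sum, which was 119 in the P14 library with an Itga1 of 51.7 and 589 and 882 in the other 2; the part of vessel cells in the Itga1 values was not tested.

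Itgam, the alpha subunit of the complement receptor of microglia and macrophages, showed the largest rise of a cortical member with a mean of at least 100, from 39.5, 22.2 and 21.8 at P1 to 285, 606, 309 and 525 at P14 (log2 difference 3.89, SE 0.46, limma adjusted p 6.8e-06). The summed value of 9 microglial markers moved with it, from 372 to 952 at P1 to 1381 to 2976 at P14, and 8 of those 9 markers passed the test as higher. Itgam also rose in hippocampus (2.85, SE 0.66) and, from at most 1.1 at P1 to 1.99, 26.2 and 36.1 at P14, in olfactory bulb (2.84, SE 0.91; lost without P1 replicate 2, P14 replicate 2 or P14 replicate 3). In bulk libraries fewer cells of a type and less RNA per cell cannot be told apart, and the part of microglia in the Itgam values was not tested.

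Over the integrins as a class, 6 of the 12 tested in cortex rose from P1 to P14 and 2 fell (6 and 0 with quantile normalization). The hippocampal counts were 6 and 3 of 12 (4 and 1 with quantile normalization) and those of olfactory bulb 7 and 0 of 11. Over all genes tested the shares higher and lower were 24.0% and 40.3% (cortex), 21.0% and 28.5% (hippocampus), and 24.8% and 31.4% (olfactory bulb), to be read beside each list of genes that follows. The median log2 difference of the integrins tested was 0.51, -0.35 and 1.44 in that order of regions. Proteins that couple integrins to actin form a separate list. Of its 12 genes tested, 7 rose and 0 fell in cortex, while hippocampus had 5 and 2 and olfactory bulb 7 and 0. Fermt2, the kindlin that activates integrins, was higher by a log2 difference of 1.91 (SE 0.13), 2.27 (SE 0.14) and 2.5 (SE 0.17), and Vcl, vinculin, by 2.24 (SE 0.17), 1.57 (SE 0.18) and 0.86 (SE 0.30). Among 6 tested receptors for collagen and laminin outside the integrin family, 3, 5 and 5 rose and 2 (0 with TMM), 0 and 0 fell; the largest rise was that of the syndecan Sdc4 at 4.21 (SE 0.19), 5.78 (SE 0.23) and 5.89 (SE 0.35).

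The laminin beta chains moved in opposite directions in cortex and hippocampus, and in olfactory bulb only Lamb2 of the pair passed. Lamb2 read 64.8, 96.5 and 89.0 at cortex P1, 148, 145 and 102 at P7 and 149, 156, 220.1 and 154 at P14, a log2 difference of 1.02 between P14 and P1 (SE 0.19, limma adjusted p 0.00043). Without P1 replicate 1 and P14 replicate 3 together it was 0.72 and stayed called. In hippocampus Lamb2 went from 65.5, 71.3 and 50.4 through 162, 160.2 and 154 to 128, 262 and 113 (1.32, SE 0.30), so its rise lay between P1 and P7. In olfactory bulb it went from 21.9, 29.1 and 30.9 through 47.3, 66.5 and 58.7 to 93.4, 129.6 and 157 (2.16, SE 0.28). Lamb2 was higher in every P14 library than in any P1 library in all 3 regions.

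Lamb1, the beta chain of early basement membranes, fell in cortex and hippocampus. Its cortex values were 88.1, 125 and 123 at P1, 123, 60.3 and 101 at P7 and 18.5, 21.4, 58.7 and 22.8 at P14 (log2 difference from P1 -1.99, SE 0.35, limma adjusted p 0.00024). Hippocampal values were 152, 159.9 and 153, then 113, 88.2 and 108, then 84.9, 54.0 and 25.1 (-1.65, SE 0.37, limma adjusted p 0.0031). In olfactory bulb P1 libraries read 140.2, 133 and 141 while P14 libraries read 29.8, 192 and 45.8, which did not pass the test (-1.09, limma adjusted p 0.098). Without P14 replicate 2, the library of 192, the olfactory bulb difference was -1.87 and passed (limma adjusted p 0.00018). Leaving out the highest P14 value makes a fall larger, so this is no independent test. Per kilobase of exon, hippocampal Lamb1 stood at 15.6 and Lamb2 at 10.3 at P1, against 5.51 and 27.6 at P14, and in olfactory bulb the levels per kilobase were 13.9 and 4.49 at P1 against 8.98 and 20.8 at P14. In cortex Lamb2 was already the higher of the pair per kilobase at P1, 13.7 against 11.3.

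**Figure D3:**
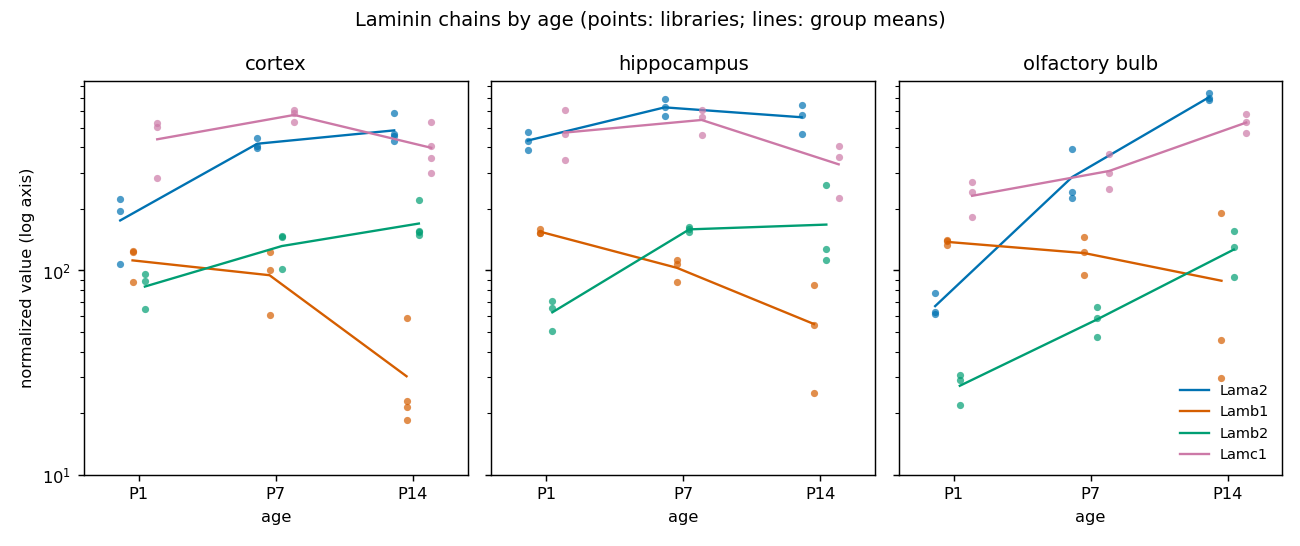
Normalized values of 4 laminin chains on a log axis against age in the 3 regions, with a point for each library and lines through group means. Lamb1 and Lamb2 cross in every panel between P1 and P14, and the Lamb1 point of 192 in olfactory bulb at P14 lies far above the other 2 libraries of its group.

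The gamma chain common to most laminins, Lamc1, passed the test in olfactory bulb alone when all libraries were used, and the difference between regions was not tested. It read 283, 505 and 528 at cortex P1 and 299.6, 353, 535 and 406 at P14, which did not pass the test (log2 difference -0.12, SE 0.21). In hippocampus it read 464, 609 and 346 at P1 and 406, 226 and 360.1 at P14 (-0.52, limma adjusted p 0.10). In olfactory bulb it rose from 271, 242 and 183 to 469, 535 and 584 (1.2, SE 0.20, limma adjusted p 0.00036). Without cortex P1 replicate 1 and P14 replicate 3 the cortical difference was -0.56 and passed (limma adjusted p 0.0033). These libraries hold its lowest P1 and highest P14 values and were left out after seeing the data, so this is no independent test.

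Lama2, the alpha chain of laminin-211, rose in cortex from 107, 225 and 195 at P1 to 398, 447 and 407 at P7 and 453, 431, 589.7 and 466 at P14 (log2 difference between P14 and P1 1.52, SE 0.20). In olfactory bulb the rise was from 60.9, 77.5 and 62.3 through 226, 392 and 243 to 735, 682 and 697 (3.39, SE 0.21, limma adjusted p 4.5e-07), with no overlap between any 2 ages. Hippocampal Lama2 was already 431, 478 and 389 at P1 and did not pass the test by P14, when it read 646, 577 and 464. Lama4, a chain of vessel basement membranes, peaked at P7 in hippocampus: 79.1, 53.9 and 47.3 at P1, 188, 146 and 163 at P7 and 32.2, 25.4 and 26.9 at P14. Both steps passed, up by 1.48 (SE 0.29) and then -2.52 (SE 0.29), and the endothelial marker sum took the same course, 28.9 to 82.6, then 202 to 452, then 3.58 to 35.3, with Cldn5 and Esam at 0 in every P14 library. In olfactory bulb Lama4 rose by 1.59 (SE 0.37) from P1 to P14 beside an endothelial sum that went from 18.9 to 25.8 up to 119 to 882; the part of vessel cells in these values was not tested.

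The other laminin chains were low. Lama5 fell in cortex (-1.19, SE 0.36) and hippocampus (-2.09, SE 0.41), Lama1 fell in hippocampus (-2.84, SE 0.90), and Lama3 was higher at P14 in cortex (1.69, SE 0.40) and olfactory bulb (3.38, SE 0.61). The cortical Lama5 call was lost under quantile normalization and without P1 replicate 2, and the hippocampal Lama1 call without P1 replicate 1 or P1 replicate 2. Lama4 fell in cortex too (-1.29, SE 0.45), a call lost in 10 of 18 alternatives. Of the laminins tested from P1 to P14, cortex had 3 higher and 3 lower of 8 (3 and 1 with quantile normalization). Hippocampus had 1 and 4 of 7 (2 and 4 with TMM), and olfactory bulb 5 and 1 of 9. The cortical shares are near those of all genes there (24.0% higher, 40.3% lower), whereas 28.5% of all genes were lower in hippocampus and 24.8% higher in olfactory bulb.

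Collagen IV, the collagen of basement membranes, is given region by region. In olfactory bulb Col4a1 read 53.4, 32.6 and 35.8 at P1, 102, 105 and 75.3 at P7 and 129, 605 and 436 at P14, while Col4a2 read 16.8, 23.3 and 17.1, then 41.8, 50.8 and 48.1, then 77.5, 238 and 168. Both rose from P1 to P14, by 3.0 (SE 0.47, limma adjusted p 0.00028) and 2.89 (SE 0.38, limma adjusted p 8.2e-05). The library with the lowest P14 value of each was replicate 1, which also had the lowest sum of the 7 endothelial markers (119 against 589 and 882) and of the 7 mural markers (217 against 1257 and 1205). The part of vessel cells in the collagen IV values was not tested. Col4a5 rose beside them by 2.79 (SE 0.40).

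In hippocampus both chains were highest at P7. Col4a1 read 145, 120.3 and 52.2 at P1, 398, 234 and 277 at P7 and 126, 164 and 188 at P14, and Col4a2 read 52.0, 57.0 and 31.9, then 185, 91.3 and 118, then 40.8, 27.6 and 21.5. The rise from P1 to P7 passed for Col4a1 (1.60, SE 0.35) and Col4a2 (1.45, SE 0.38), and the fall after P7 passed for Col4a2 (-2.08, SE 0.38). The Col4a2 rise was lost without P1 replicate 1, P1 replicate 3, P7 replicate 1 or P7 replicate 3. At P14 the endothelial sum was at most 35.3, the mural sum was 130, 98.1 and 235 and the choroid plexus sum 4034 to 8462, and Col4a1 read at least 126 in each library. The part of these cell types in the Col4a1 values was not tested.

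In cortex the result turned on the 2 libraries that stand apart. Col4a1 read 50.6, 205 and 279 at P1, 246, 217 and 219 at P7 and 97.2, 84.3, 337 and 124 at P14, and Col4a2 read 42.0, 137 and 142, then 125, 99.0 and 82.5, then 32.5, 17.6, 148 and 46.2. Neither passed from P1 to P14 with all libraries (log2 differences of -0.07 and -1.05, with limma adjusted p-values of 0.92 and 0.12). The lowest P1 value of both was in replicate 1 and the highest P14 value in replicate 3, the libraries with the lowest and the highest endothelial sums. An alternative chosen after seeing the data left these 2 libraries out. Col4a1 then fell by 1.24 (limma adjusted p 0.00015) and Col4a2 fell by 2.19 (limma adjusted p 0.00015). Col4a2, unlike Col4a1, also passed without P1 replicate 1 (-1.62) or without P14 replicate 3 (-1.62). Leaving out the lowest P1 or the highest P14 value of a gene makes its fall larger, so these results are no independent test.

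**Figure D4:**
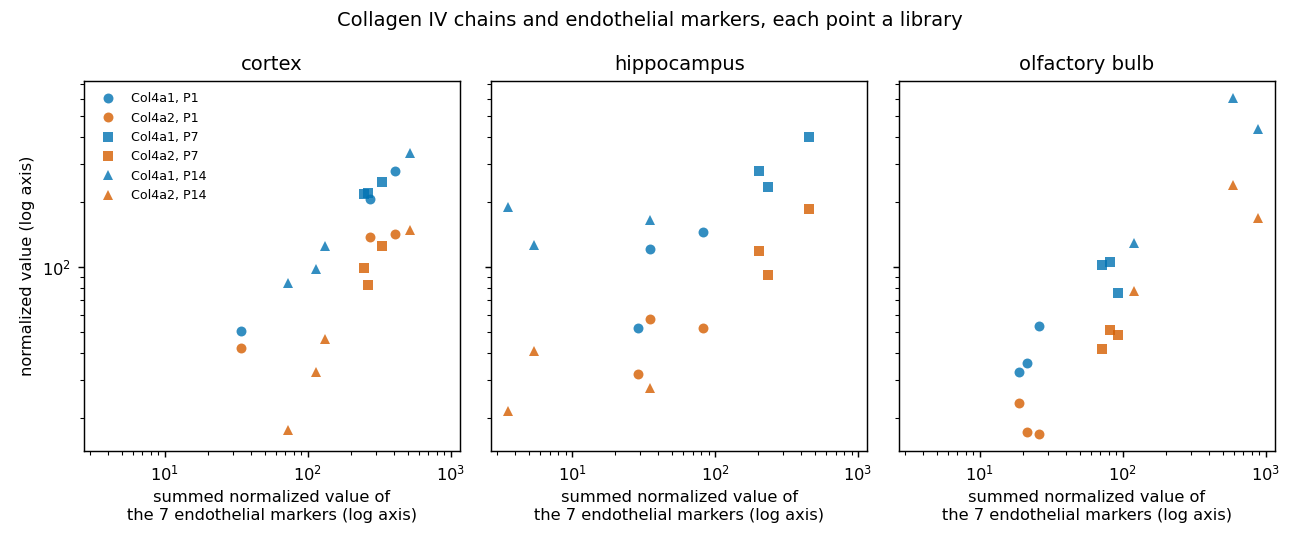
Normalized values of Col4a1 and Col4a2 against the summed value of 7 endothelial markers, both on log axes, with a point for each gene and library and a symbol for each age. In cortex and olfactory bulb high points of both chains sit at high endothelial sums. In hippocampus the 3 P14 points of Col4a1 lie at 126 to 188 with endothelial sums of at most 35.3. In these 3 libraries mural sums were 98.1 to 235 and choroid plexus sums 4034 to 8462, neither of which is plotted.

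Of the fibrillar collagens, which build the fibres of connective tissue, 6 of 9 tested fell and 1 rose in hippocampus from P1 to P14. Cortex had 4 and 1 of 9, and in olfactory bulb 0 of 6 passed. Of all genes tested, 28.5% fell in hippocampus and 40.3% in cortex, so the cortical count is near that share, and in olfactory bulb 56.1% passed in either direction. Col2a1 read 133, 176 and 133 at hippocampus P1, 82.1, 134 and 107 at P7 and 3.22, 2.21 and 16.1 at P14 (log2 difference from P1 -4.58, SE 0.55, limma adjusted p 3.5e-05), and in cortex 18.2, 29.0 and 33.6 at P1 against 0.378, 0, 3.47 and 0 (-4.10, SE 0.53). Col11a1 fell from 191, 163 and 205 to 101, 26.5 and 50.2 in hippocampus (-1.83, SE 0.39) and from 130.4, 131 and 140.4 to 49.6, 14.5, 42.9 and 34.3 in cortex (-2.02, SE 0.31), but read 140.2, 151 and 153 at P1 and 135, 201 and 246 at P14 in olfactory bulb. Its partner chain Col11a2 went the other way, up by 2.53 (SE 0.52) and 2.15 (SE 0.41) in hippocampus and cortex.

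Col3a1 fell in hippocampus from 353, 141 and 60.8 to 3.22, 55.1 and 14.3 (-3.25, SE 0.81, limma adjusted p 0.0058), with no overlap but a wide spread within each age. The summed value of 7 fibroblast and meningeal markers was 136 to 344 in those P1 libraries and 50.5 to 138 at P14, with 3 of the 7 markers lower by the test. In cortex P1 replicate 1 read 1.42 for Col3a1 and 16.5 for Col1a2, against 172 and 152 and against 177 and 158 in the other 2 libraries, and its fibroblast marker sum was 32.4 against 357 and 282. The part of fibroblasts in these values was not tested.

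Fibril-associated collagens bind to the surface of such fibres. Col12a1 fell in hippocampus from 192, 229.9 and 216 at P1 to 66.6, 93.7 and 19.7 at P14 (-2.06, SE 0.49) and in cortex from 69.6, 88.2 and 87.0 to 16.3, 14.5, 39.4 and 24.4 (-1.84, SE 0.29), after P7 values of 161, 167 and 122. In olfactory bulb Col12a1 read 98.2, 92.9 and 59.0 at P1 and 79.5, 119 and 179 at P14. Col19a1 fell in cortex by 3.36 on the log2 scale (SE 0.42). Col9a3, a chain of collagen IX, was the only collagen of those tested in all 3 regions that was called higher at P14 in each. It read 56.3, 74.3 and 48.2 at cortex P1 against 137, 120.1, 118 and 95.5 at P14 (0.98, SE 0.19), 38.5, 25.4 and 36.2 against 155, 97.0 and 100.3 in hippocampus (1.77, SE 0.31) and 35.5, 37.4 and 49.1 against 149, 181 and 153 in olfactory bulb (1.97, SE 0.24). Its exons overlap those of Tcfl5 on the other strand by 234 bases, and reads there cannot be assigned to one gene.

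Col8a1, a network collagen, came up from near 0. It read 0.712, 0 and 1.84 at hippocampus P1, 3.02, 3.75 and 0 at P7 and 79.5, 22.1 and 26.9 at P14 (4.46, SE 0.82), and 0.358, 3.96 and 0.552 at olfactory bulb P1 against 47.7, 48.2 and 19.4 at P14 (4.06, SE 0.69). In hippocampus the summed value of 5 choroid plexus markers moved with it, from 21.4 to 58.0 at P1 to 4034 to 8462 at P14. In olfactory bulb that sum was at most 41.5 in every young library. The part of choroid plexus or of other cell types in the Col8a1 values was not tested. The transmembrane collagen Col23a1 rose in olfactory bulb from 29.0, 19.4 and 33.6 to 147, 156 and 165 (2.5, SE 0.32).

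Of the 36 members tested in all 3 regions, 7 were called higher at P14 in each (Col9a3, Itga6, Itgam, Itgav, Itgb1, Itgb8 and Lamb2) and 0 lower, where 14% of all genes tested in all 3 were higher in each and 17.8% lower. Of 41 members tested in both cortex and hippocampus, 18 were called in the same direction and 0 in opposite directions (39.5% and 1.05% of all genes). Of 37 tested in both cortex and olfactory bulb, 10 were called in the same direction (41.3% of all genes) and 2 in opposite ones (2.38%), with Col9a1 and Lama4 lower in cortex and higher in olfactory bulb. For hippocampus and olfactory bulb the numbers were 8 and 3 of 39 (36.5% and 1.00% of all genes), with Col16a1, Itga1 and Lama4 lower in hippocampus and higher in olfactory bulb. The difference between regions was not tested, since the tables were scaled apart.

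Genes of the surrounding matrix were read from lists of their own. Of 12 other basement membrane and matrix proteins tested from P1 to P14, cortex had 2 risen and 4 fallen (2 and 7 without the 2 libraries that stand apart). Hippocampus had 2 and 5 and olfactory bulb 7 and 1, where 24.8% of all genes rose. Vessel markers rose in those olfactory bulb libraries too, 6 of 7 endothelial and 3 of 3 mural ones tested, with median log2 differences of 3.23 and 3.96; their part in the matrix genes and in Nid1 and the enzymes given next was not tested. Sparc, a collagen-binding protein of astrocytes, had log2 differences of 1.17 (SE 0.11), 2.88 (SE 0.22) and 4.62 (SE 0.23) in cortex, hippocampus and olfactory bulb. Dag1, the dystroglycan laminin receptor, had 1.17 (SE 0.10), 1.73 (SE 0.13) and 2.4 (SE 0.15). Tnc, tenascin C, fell in all 3, with -3.54 (SE 0.15), -3.23 (SE 0.21) and -1.89 (SE 0.25). The basement membrane linker Nid1 rose in olfactory bulb (3.82, SE 0.29) and did not pass in the other regions. Of the collagen-modifying enzymes and chaperones, 4 rose and 6 fell of 15 in cortex (4 and 3 with TMM, 5 and 3 with quantile normalization, 2 and 6 without the 2 libraries that stand apart). The counts were 2 and 2 of 16 for hippocampus and 8 and 0 of 13 for olfactory bulb. The prolyl hydroxylase P4ha1 was higher in all 3, by 2.48 (SE 0.19), 1.57 (SE 0.30) and 2.30 (SE 0.27).

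No member passed the test between Gabbr1 cKO and control at P28. The comparison asks whether cKO libraries, in which Gabbr1 was lower but not absent, hold these genes at another level. By limma 0 members were called (30 were tested in cortex, 40 in hippocampus, 53 in olfactory bulb), beside 0.00982%, 0% and 0% of all genes. The 1 gene called in cortex was Gabbr1 itself (log2 difference -3.45, SE 0.29, limma adjusted p 4.4e-05). In hippocampus and olfactory bulb Gabbr1 differed by -1.84 (SE 0.39, limma adjusted p 0.94) and -1.48 (SE 0.33, limma adjusted p 0.88), so there the test did not call the targeted gene either. edgeR and DESeq2 on the recovered reads also called 0 members in each. At an unadjusted limma p under 0.05 there were 0, 1 and 2 members (0%, 2.5% and 3.77%), against 2.17%, 2.54% and 3.02% of all genes. The groups did not overlap for 2, 7 and 3 members, 6.67%, 17.5% and 5.66% of those tested, against 1.89%, 15.0% and 10% of all genes. Some of the 53 olfactory bulb members passed the filter only through control replicate 2, the library low in Rn45s. Col6a6 read 85.1 there against at most 1.99 in the other libraries, and Itgad 66.4 against at most 1.89.

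Among the abundant integrins no difference passed the test. Itgav read 2041, 2374, 2372 and 2311 in cortex controls and 2486, 2389, 2558 and 2435 in cKO libraries, which do not overlap but have a log2 difference of 0.12 (SE 0.16, limma adjusted p 1.0). Itgb8 read 1019.6, 924, 777 and 690.1 against 965, 811, 944 and 697 (0.01, SE 0.19). In cortex the labels are of 2 styles, here called rounds, and the second holds 1 cKO library. Within the first and the second the Itgb8 difference was -0.10 and -0.07, that of Itgav 0.17 and 0.06 and that of Itgb1 -0.43 and -0.27. In hippocampus Itgav read 1524 and 1694 in controls and 1957, 2047, 1708 and 1734 in cKO (0.21, SE 0.25), and in olfactory bulb 894, 398 and 1255 against 1178, 1055 and 1510.4 (0.69, SE 0.37; 0.22 without control replicate 2). Itgb1 differed by -0.27 (SE 0.21) in cortex, -0.13 (SE 0.29) in hippocampus and 0.14 (SE 0.27) in olfactory bulb, and Itgb8 by 0.10 (SE 0.28) and -0.09 (SE 0.21) in hippocampus and olfactory bulb.

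For the basement membrane chains the spread between P28 libraries was wide. Lamb2 read 63.4, 71.2, 106 and 96.1 in cortex controls and 88.6, 124, 114 and 73.9 in cKO (0.25, SE 0.28), and Lamc1 159.5, 109.8, 205 and 225 against 95.4, 94.4, 145 and 166 (-0.47, SE 0.29). Within the first and the second round the Lamc1 difference was -0.27 and -0.37, while signs were opposite for Lamb2 (0.67 and -0.45), Lamb1 (1.44 and -1.33), Col4a1 (0.67 and -0.32) and Col4a2 (-0.40 and 0.78). In hippocampus Lamb2 read 105 and 109 in controls and 141, 17.3, 142 and 138 in cKO, where the 17.3 is the library low in Rn45s; the difference was -0.35 (SE 0.80) with it and 0.39 without it. Hippocampal Lamb1 read 325 and 122 against 138, 28.9, 131 and 168 (-1.03, SE 0.70, and -0.46 without cKO replicate 2). Choroid plexus markers summed to 140471 and 68603 in these controls and to 51304, 11675, 72457 and 127985 in cKO. The lowest sum was thus in cKO replicate 2, the library low in Rn45s. The part of choroid plexus in the Lamb1 and Lamb2 values was not tested. Col4a1 spanned 2.34 to 96.5 in cortex controls and 8.39 to 54.7 in cKO, and Col4a2 spanned 7.40 to 34.0 and 5.24 to 50.9. Across the regions in that order, the differences in Col4a1 were -0.20 (SE 0.87), 0.38 (SE 0.47) and 0.69 (SE 0.50), and those in Col4a2 were -0.43 (SE 0.72), -0.20 (SE 0.56) and 0.46 (SE 0.49). Without control replicate 2 the olfactory bulb difference of Col4a1 was 0.10 and that of Lamb2, 0.81 (SE 0.45) in all libraries, was 0.32.

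3 members met the rule for naming at P28, an unadjusted p under 0.05 and no overlap of the groups, and none held after adjustment. Col8a1 read 1032 and 649 in hippocampal controls and 489, 270.1, 392 and 641 in cKO (log2 difference -0.94, SE 0.38, limma adjusted p 0.94). The exact two-sided permutation test gave p = 0.133, taken as 2 times the smaller tail. This is the smallest value that 2 against 4 then allow. Groups without overlap always give that smallest value, so the naming rule fixed it in advance and it adds nothing to the limma result. Choroid plexus markers summed to 140471 and 68603 in those controls and to 51304, 11675, 72457 and 127985 in cKO. The library order of Col8a1 and of the sum was alike at both ends but not between them. Control replicate 2 had a Col8a1 of 649 at a sum of 68603, and cKO replicate 4 had 641 at 127985. The part of choroid plexus was not tested.

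In olfactory bulb the collagen receptor subunit Itga2 read 40.2, 37.4 and 31.2 in controls and 16.3, 13.9 and 17.4 in cKO (-1.14, SE 0.51, limma adjusted p 0.88). The subunit Itga8, a receptor for nephronectin, read 12.6, 35.7 and 17.0 against 5.16, 4.98 and 4.35 (-1.84, SE 0.81, limma adjusted p 0.88), its highest value being in the library low in Rn45s, and without that library its mean was under the filter. For both the exact two-sided permutation test gave p = 0.1, the smallest that 3 against 3 allow by the same rule. The choice of members without overlap fixed this value too. That library, control replicate 2, also read 507 for Col15a1 against 12.3 to 36.1 in the other 5 and 63.0 for Itgb6, which was at 0 in the other 5.

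**Figure D5:**
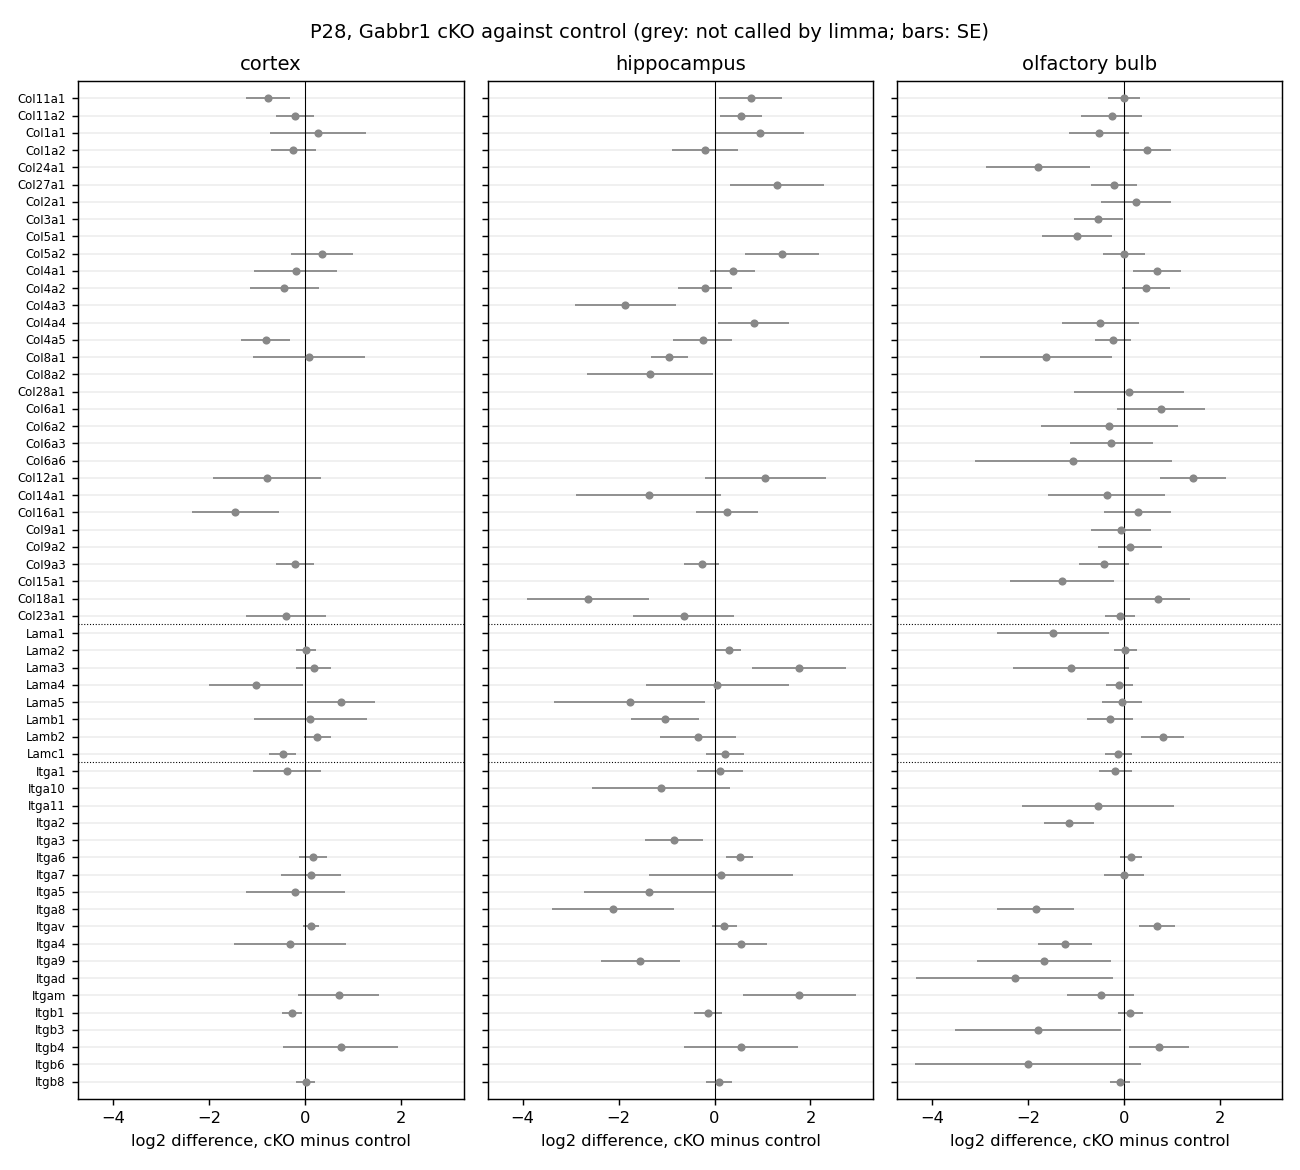
Log2 differences between cKO and control at P28, with standard errors, for each member tested in the 3 regions, collagens above, then laminins, then integrins. All points are grey because no member was called, and the abundant Itgav, Itgb1 and Itgb8 have short bars near 0 in cortex (0.12, -0.27 and 0.01).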

How the data were processed

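Deposited tables hold a normalized signal per gene symbol and library. Per the submitters' processing notes, which give no role or order, FastQC, MultiQC, STAR 2.5.0a, DESeq2 1.20.0 and mm10 were used; the counting program, strand setting and annotation are not given in the sources used here. Libraries came from very small amounts of total RNA, amplified with a low-input kit, per the labels' protocols. Every deposited signal value was a whole multiple of 1 step per library (100% of values within 0.1 reads), so the values are counts over 1 factor; this check is weak where a step is near 1, as in cKO replicate 2 of olfactory bulb. A set of 27 symbols turned into dates was restored by row order. Of all 24421 symbols, 23376 and all 80 members matched GENCODE vM21 (GRCm38), and 57 members have 63 RefSeq promoter windows. Exons of 19 members overlap exons on the other strand, among them Itga4 (1124 bases), Itgav (634 bases) and Lama2 (631 bases). Reads from such overlaps cannot be assigned to one gene. A row that matches the symbol rule, and the values of 1 further member that is in the counts, are not reported here.

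Genes with a table mean of at least 10 were kept and log2(value + 1) was fitted with limma 3.58.1 (trend) in R 4.3.3, with the 3 ages of a region, or the P28 genotypes, in 1 fit and no covariate. The Benjamini-Hochberg adjustment ran over all genes tested and calls were made at 0.05. Fold changes on this scale understate those of low genes. P28 members named at an unadjusted p under 0.05 without overlap were also given exact permutation tests over libraries. That choice fixes the outcome of these tests at their smallest value. The fits were repeated with a pseudocount of 0.1 or 8, without the filter, with a mean of at least 100, TMM, quantile and median-ratio scaling, limma without trend, edgeR 4.0.16 (quasi-likelihood) and DESeq2 1.42.0 on the recovered reads, fits of 2 ages, label round as a covariate, and leaving out each library. The procedure was tested on simulated data. Values of single libraries are given by rule for some members, though not at every age or in every P28 group. These are up to 6 rises and 6 falls (the largest from P1 to P14 in a table among called members with a mean of at least 100). The rule also takes Col4a1, Col4a2, Lamb1, Lamb2, Lamc1, Itgb1, Itgav and Itgb8, and P28 members without overlap at an unadjusted p under 0.05. Further members named were chosen after their values were seen. Members, lists and tests were chosen with earlier results of these data known.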

Additional observations from a re-analysis of the deposited data

Results flagged for a closer look

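In cortex P14 the third replicate lay far from the other 3 libraries for 3 basement membrane chains. Col4a1 read 337 there against 84.3 to 124, Lamb1 58.7 against 18.5 to 22.8 and Lamb2 220.1 against 149 to 156. At P28, Col4a2 read 50.9 in cortex cKO replicate 4 against 5.24 to 12.8 in the other cKO libraries. That library is the only cKO one of the second label style, and its fibroblast marker sum was 218 against 13.5 to 25.6 in the other cKO libraries; controls of the second style had sums of 220.3 and 195 and Col4a2 values of 34.0 and 24.9, against 18.0 and 21.0 and against 7.40 and 16.3 in the first. The part of fibroblasts or of the round in these Col4a2 values was not tested. The fit with round as a covariate compared genotypes only. Lamb2 read 17.3 in hippocampus cKO replicate 2 against 138 to 142. Of 36 sets of 4 libraries examined for such a library, 5 held one. The cut-off is passed in about 1 in 20 sets of independent normal values. These sets share libraries and 3 of the 5 are cortex P14 replicate 3, so the 5 cannot be set against that rate.

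For 4 members every P14 library moved one way from P1 in one region and the opposite way in another, and the difference between regions was not tested. The log2 change from P1 to P14 was -1.44 in hippocampus and 2.30 in olfactory bulb for Col16a1, -1.78 in cortex and 1.92 in olfactory bulb for Col9a1, -1.35 in hippocampus and 3.28 in olfactory bulb for Itga1, and -1.04 in hippocampus and 1.59 in olfactory bulb for Lama4. Under other settings the hippocampal call was lost in 8 alternatives for Col16a1, 13 for Itga1 and 3 for Lama4.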

How the results depend on the processing

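No paired analysis was possible because the labels give no replicate numbers. Of 3360 alternative values of 199 results on single members, 3056 kept direction and call, 294 lost the call, 9 gained it and 1 reversed: Col19a1 in hippocampus from P1 to P14 was 0.29 under quantile normalization against -2.15. With a mean of at least 100 required, fewer members were tested and the calls were 4 for cortex P14 against P7, 8 for cortex P14 against P1, 6, 6 and 9 for hippocampus P7 against P1, P14 against P7 and P14 against P1, and 3, 7 and 7 for the same steps in olfactory bulb. With no filter they were 42 for cortex P14 against P1 and 29 for olfactory bulb P14 against P7. From P1 to P7, fitting only the 2 ages called 18 members in hippocampus and 18 in olfactory bulb, and DESeq2 called 15 in olfactory bulb; the cause was not tested. Leaving out 1 library gave 5 to 7 members for hippocampus P7 against P1 (main 10), 12 to 26 for hippocampus P14 against P7 (main 21; 13 without P7 replicate 2, 12 without P7 replicate 3), 3 to 6 for olfactory bulb P7 against P1 (main 8), 7 to 11 and 18 to 24 and 21 to 30 for the 3 cortex steps, 19 to 30 for hippocampus P14 against P1, and 14 to 19 and 20 to 24 for the later olfactory bulb comparisons. The hippocampus rises from P1 to P7 numbered 5 without P1 replicate 1 or P7 replicate 1 and 6 without P1 replicate 3 or P7 replicate 2, and those of olfactory bulb 3 without any P1 library, P7 replicate 1 or P7 replicate 2. At P28 every alternative called 0 members. The number of libraries, 2 to 4 a group, limits the P28 comparisons: standard errors of the basement membrane chains reached 1.17 (Lamb1 in cortex) on the log2 scale.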
